A study of Homo sapiens with 12 samples.

Results

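Translation elongation factors, the cytoplasmic poly(A)-binding protein PABPC1 and the translationally controlled tumour protein TPT1 are often counted among the genes with 5′TOP mRNAs. Followed here by ribosome profiling were 8 genes: EEF1A1, EEF1B2, EEF1G, EEF1D, EEF2, EIF5A, PABPC1 and TPT1. They were taken by name and not by their sequence. Of the 6 with a RefSeq start window, 4 had a run of C and T bases at an annotated start, and EEF1G and EIF5A had none. Their coding open reading frames (ORFs), as called by the authors, were placed on genes by position and summed per gene. All 8 had a kept coding ORF, among 6549 genes with one, and all 8 were among the 4868 genes with enough footprints to be tested. The cells were HEK293, an established human embryonic kidney line, grown in DMEM with FBS and antibiotics. They were taken in log phase, after 2 h without serum, or after 1 h without amino acids in a balanced salt solution (EBSS) that still held FBS, vitamins and antibiotics. Lysates were made in cycloheximide and parted on gradients. Footprint libraries came from the monosome fractions, where an mRNA carries 1 ribosome, and from the polysome fractions, where it carries several, with the fractions of each kind pooled. There are 2 libraries in each of the 6 groups, called A and B in the deposited table. No label says that they are separate cultures, so every p-value measures the spread between these libraries only.

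A 5′TOP mRNA begins with a cytosine at the cap followed by an unbroken run of pyrimidines, and this tract lets the cell hold back the mRNA when growth signalling through mTORC1 falls. Most such mRNAs encode ribosomal proteins and factors of translation. EEF1A1 carries aminoacyl-tRNA to the ribosome, EEF1B2, EEF1D and EEF1G form the exchange complex that reloads it with GTP, EEF2 moves the ribosome along by a codon, and EIF5A carries the amino acid hypusine and helps the ribosome past difficult peptide bonds. PABPC1 binds the poly(A) tail, and its own mRNA is held in check by the protein through an A-rich stretch of its leader.

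The RefSeq start windows (GRCh38.p14) are shown for the 6 genes that have an entry, because the pyrimidine run at the cap is the feature that defines the class. Each line gives 30 bases on the gene's strand, 5′ to 3′, 10 before the annotated start and 20 from it on, with the run in capitals where the annotated start is a C followed by at least 4 C or T bases.
EEF1A1, chr6:73521013-73521042, minus strand: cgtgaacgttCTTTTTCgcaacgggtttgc
EEF2, chr19:3985444-3985473, minus strand: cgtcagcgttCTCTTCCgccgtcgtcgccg
TPT1, chr13:45341164-45341193, minus strand: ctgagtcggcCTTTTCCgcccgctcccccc
EEF1B2, chr2:206159885-206159914, plus strand: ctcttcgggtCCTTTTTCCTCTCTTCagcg
EEF1G, chr11:62573872-62573901, minus strand: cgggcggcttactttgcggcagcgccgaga
EIF5A, chr17:7306989-7307018, plus strand: tgggaacccgaccacactagcgcgctagaa
EEF1A1, EEF2 and TPT1 each begin with a run of 7 pyrimidines. EEF1B2 has a run of 16 at 1 of its 2 annotated starts. EEF1G, and EIF5A at all 6 of its annotated starts, have no such run at the annotated base, which says nothing about starts a few bases away. PABPC1 and EEF1D are named only. Over all 35116 RefSeq start windows 4.07% hold a run of this kind on the gene's strand. Counted per gene, at any annotated start, 5.14% of 27305 genes with a window do, and 9.16% of the 3897 tested genes with a window. Among cytosolic ribosomal protein genes 46 of 63 genes with a window do (73%), and among other genes listed as 5′TOP 15 of 21 (71.4%).

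The monosome libraries were shallow, with 119881 to 346214 coding footprints each, against 1493881 to 5313483 in the polysome libraries. The smallest count of any of the 8 genes was 13 footprints, for EEF1D in serum starvation monosomes A (Poisson 95% interval 6.92 to 22.2, counting error only). Counts were scaled per library by TMM and are given as CPM over the coding footprints of the library, so every difference is relative to the other genes of that library. Footprints follow mRNA level and translation alike, which cannot be told apart here. In polysomes the libraries with letter B differed from those with letter A in much the same genes across conditions (r of 0.768 to 0.866). The agreement was weaker among monosome groups (0.217 to 0.313) and between fractions (0.161 to 0.423). The fits were made without and with a term for the letter shared by both fractions (the replicate block). A second form of the block gives each fraction a letter term of its own.

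Near-identical copies limit what the levels of 3 of the genes mean. RefSeq lists 50 EEF1A1 pseudogenes, and ORFs called inside 32 of them held 181% as many footprints as the EEF1A1 coding ORF itself. For EEF1B2 the figure was 80.9% and for EIF5A 35.4%, while it was 8.22% for PABPC1, 4.74% for EEF1D, 1.69% for TPT1, 0.533% for EEF1G and 0% for EEF2. How reads that match several copies were placed is not given in the sources used here, so the levels of EEF1A1, EEF1B2 and EIF5A are uncertain. In an alternative chosen after seeing the data, pseudogene footprints were added to their genes, from ORFs that share no base with one another. This smaller set came to 155% of the own footprints of EEF1A1, 71.7% of those of EEF1B2 and 33.6% of those of EIF5A. The difference between fractions was then 1.25 in place of 1.15 log2 for EEF1A1, -0.21 in place of -0.30 for EEF1B2 and -1.43 in place of -1.48 for EIF5A. The same 5 of the 8 genes passed between the fractions over 3 conditions, without and with the block.

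Over the 3 conditions, 4 of the 8 genes were higher in monosomes than in polysomes and 1 was lower. PABPC1 was 12.9-fold higher, EEF2 3.98-fold, TPT1 2.8-fold and EEF1A1 2.23-fold, and EIF5A was 2.78-fold lower (edgeR quasi-likelihood test, Benjamini-Hochberg adjusted p under 0.05 over 4868 genes). The exchange-factor subunits EEF1B2, EEF1G and EEF1D did not pass. The 5 of 8 that passed stand beside 38.8% of all tested genes in this comparison (17% higher and 21.8% lower in monosomes), and the median of the 8 log2 ratios was 0.81 against -0.18 over all genes.

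**Figure D1:**
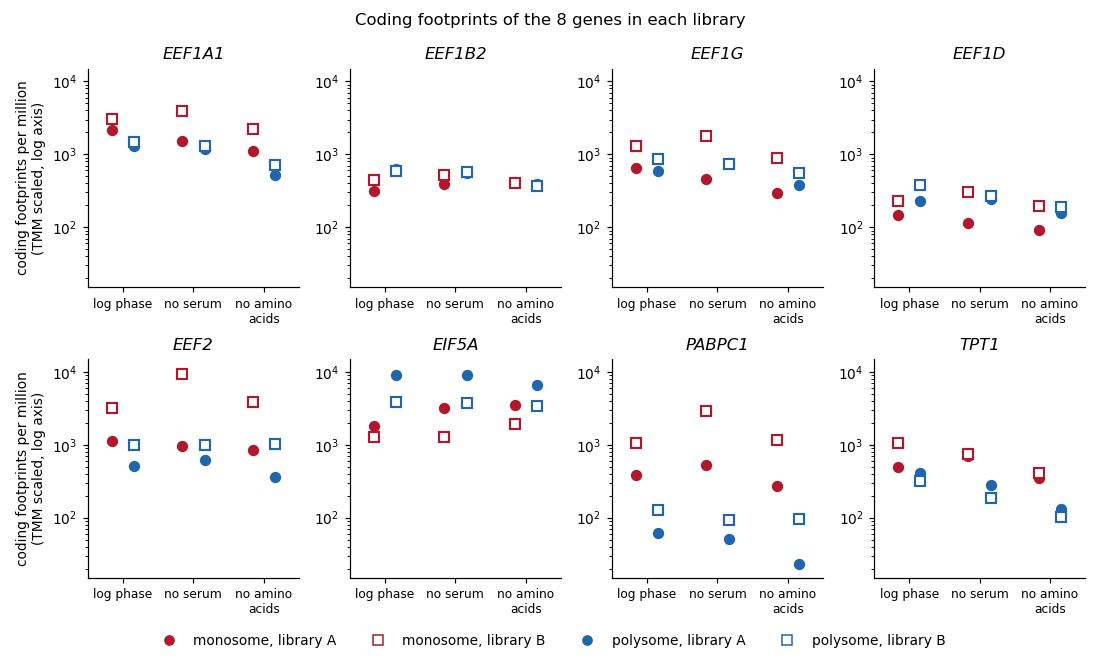
Coding footprints in CPM (TMM scaled, log axis) of each of the 8 genes by condition, for monosome (red) and polysome (blue) libraries, library A filled and library B open, with no averaging. PABPC1 monosome libraries lie at 272 to 2936 CPM, all above its polysome libraries at 22.9 to 126, whereas EIF5A polysome libraries lie above the monosome library of the same condition and letter.

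PABPC1 showed the widest gap between the fractions. Its monosome level was 382 and 1043 CPM in log phase (libraries A and B), 521 and 2936 without serum, and 272 and 1144 without amino acids. Its polysome level was 61.3 and 126, 51.2 and 93.6, and 22.9 and 96.2 in the same order. All 6 monosome libraries were above all 6 polysome libraries, which held for 9.61% of tested genes in this direction. The log2 ratio was 3.69 (SE 0.57, adjusted p = 0.000223) and stayed between 3.01 and 4.24 when each library was left out in turn. Within pairs of the same condition and letter the ratio ran from 6.23-fold in log phase A to 31.4-fold in serum starvation B. PABPC1 also passed in serum starvation alone (log2 4.58, SE 1.02, adjusted p = 0.0187) and in amino acid starvation alone (3.57, SE 0.98, adjusted p = 0.0402), where 6.82% and 7.07% of genes were called. In log phase, where 11.1% of genes were called, it did not in this fit (2.93, SE 0.95, adjusted p = 0.0576). The serum call was lost without serum starvation monosomes B (2.72, adjusted p = 0.191) or serum starvation polysomes A (4.21, adjusted p = 0.0545), and the amino acid call without any of its 4 libraries (2.08 to 5.02, adjusted p from 0.0692 to 0.38). With the replicate block PABPC1 passed in all 3 conditions (2.81, 4.20 and 3.57).

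EEF2, the translocase, was higher in monosomes as well, but with a large difference between libraries. Its monosome level was 1110 and 3217 CPM in log phase, 972 and 9406 without serum and 840 and 3818 without amino acids, library B being the higher each time. In polysomes it was 513 and 988, 609 and 1005, and 357 and 1013. The monosome library was above the polysome library in 6 of 6 pairs of condition and letter, as it was for 16.3% of tested genes, while the 2 sets of libraries overlapped, since monosomes A of both starvations (972 and 840) lay below the 3 polysome B libraries. The log2 ratio over 3 conditions was 1.99 (SE 0.57, adjusted p = 0.0131), and with the replicate block 1.69 (SE 0.32, adjusted p = 5.65e-05). Without log phase, serum starvation or amino acid starvation monosomes B the call was lost in the fit with no block (1.60, 1.08 and 1.39, adjusted p of 0.0534, 0.121 and 0.0843). In the single conditions EEF2 did not pass in the edgeR fit without the block, and with it passed in all 3, at 1.36, 2.10 and 1.60 log2.

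TPT1, a small and abundant protein with many described partners, was at 490 and 1046 CPM in log phase monosomes, 707 and 742 in serum starvation monosomes and 352 and 414 in amino acid starvation monosomes. In polysomes it was at 403 and 313, 276 and 185, and 132 and 103. The monosome library was the higher of each of the 6 pairs, by 1.22-fold in log phase A to 4-fold in both starvations with letter B. The log2 ratio over 3 conditions was 1.49 (SE 0.30, adjusted p = 0.00167) and stayed between 1.20 and 1.65 when each library was left out, with an adjusted p of at most 0.0143. In the edgeR fit without the block TPT1 passed in no single condition (adjusted p of 0.165, 0.0677 and 0.0655), whereas DESeq2 called it in all 3, and with the block it passed in all 3, at 1.11, 1.65 and 1.71 log2.

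EEF1A1, one of the most abundant proteins of the cell, was at 2140 and 3091 CPM in log phase monosomes, 1520 and 3892 without serum and 1118 and 2206 without amino acids. In polysomes it was at 1312 and 1471, 1183 and 1309, and 524 and 710. Monosomes were higher in 6 of 6 pairs, by 1.28-fold to 3.11-fold. The log2 ratio of 1.15 (SE 0.35, adjusted p = 0.018) lost its call without log phase monosomes A (1.12, adjusted p = 0.0516) or without log phase, serum starvation or amino acid starvation monosomes B (0.98, 0.76 and 0.84, adjusted p of 0.0813, 0.131 and 0.129). It was 1.09 with the replicate block (SE 0.27, adjusted p = 0.00133), where EEF1A1 also passed in amino acid starvation alone (1.38).

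EIF5A went the other way. In polysomes it was at 8970 and 3852 CPM in log phase, 9152 and 3704 without serum, and 6496 and 3372 without amino acids. In monosomes it was at 1830 and 1284, 3207 and 1276, and 3484 and 1953. The monosome library was the lower in 6 of 6 pairs, as for 21.8% of tested genes, though monosome A without amino acids stood above polysome B without amino acids. The log2 ratio over 3 conditions was -1.48 (SE 0.43, adjusted p = 0.0137), and -1.18 without amino acid starvation polysomes A, where it did not pass (adjusted p = 0.0523). With the block EIF5A passed in log phase (-1.92) and serum starvation (-1.52) but not in amino acid starvation (-0.84, adjusted p = 0.216). EIF5AL1, a coding copy of EIF5A that has a row of its own, averaged 1071 CPM in monosomes and 2569 in polysomes and had a log2 ratio of -1.39 (SE 0.43, adjusted p = 0.0197). Reads of the 2 genes may have been split between them.

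The 3 subunits of the exchange complex stayed closer to equal between the fractions. EEF1B2 spanned 317 to 513 CPM in monosomes and 371 to 628 in polysomes (log2 ratio -0.30, SE 0.27, adjusted p = 0.396). EEF1G spanned 297 to 1782 and 385 to 865 (0.46, SE 0.40, adjusted p = 0.375), and its ratio was -0.09 without serum starvation monosomes B. EEF1D spanned 92.7 to 307 and 155 to 378 (-0.39, SE 0.32, adjusted p = 0.353). Each went 1 way in 4 of the 6 pairs and the other way in the remaining 2. With a letter term per fraction EEF1D passed as lower in monosomes (-0.47, SE 0.18, adjusted p = 0.0219), which brings the count to 6 of 8 beside 60.8% of all genes. With the single letter term the same 5 genes passed as without it, beside 53.9%.

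**Figure D2:**
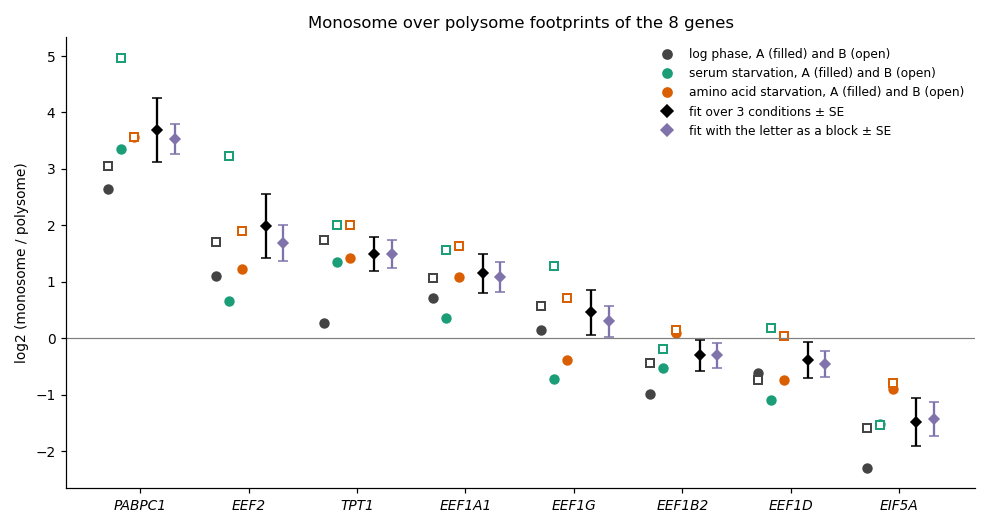
Log2 of monosome over polysome footprints for each gene, with 1 point per pair of condition (colour) and letter (A filled, B open), and diamonds for the fit over 3 conditions with its SE, without (black) and with (purple) the replicate block. All 6 points of PABPC1, EEF2, TPT1 and EEF1A1 lie above 0 and all 6 of EIF5A lie below, while the points of EEF1G, EEF1B2 and EEF1D lie on both sides.

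Counted in single conditions, the number of the 8 that passed moved with the letter term. In log phase it was 0 without the block, 4 with it (beside 34.2% of genes) and 7 with a term per fraction (beside 46.5%), without serum 1, 4 (28.7%) and 5 (40.3%), and without amino acids 1, 4 (29%) and 4 (41.2%). The 4 genes of the blocked fit were PABPC1, EEF2, TPT1 and EIF5A for both log phase and serum starved cells. For cells without amino acids EEF1A1 took the place of EIF5A.

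The letter itself parted the 8 genes. EEF2 was higher in library B than in library A in all 6 groups, by 1.65-fold in serum starvation polysomes to 9.68-fold in serum starvation monosomes. PABPC1 was higher in B in all 6 groups too, by 1.83-fold to 5.63-fold, and EEF1A1 by 1.11-fold to 2.56-fold. EIF5A was lower in B in all 6 groups, at 0.398 to 0.701 times its level in A. TPT1 was higher in B in the 3 monosome groups and lower in the 3 polysome groups. Each of the pairs above compares libraries of 1 letter, which does not measure the part of the letter in the differences between fractions. No label ties the letters between fractions.

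Per kilobase of the called ORF, which allows levels to be set side by side between genes, EIF5A was highest in polysomes with a mean of 8855 CPM per kb (SD 3997, 6 libraries), above EEF1A1 in every library. EEF1A1 (781, SD 272) and EEF1B2 (765, SD 163) followed and were not separated. EEF1B2 was above EEF1G (489, SD 130) in all 6 libraries, and EEF1G, TPT1 (394, SD 193), EEF2 (287, SD 112) and EEF1D (267, SD 84.4) overlapped their neighbours in the order. PABPC1 was last at 39.9 (SD 19.7), below EEF1D in every polysome library. In monosomes the order ran from EIF5A (3247, SD 1426) through EEF1A1 (1676, SD 734), EEF2 (1241, SD 1261), TPT1 (1047, SD 433), EEF1G (679, SD 422), EEF1B2 (609, SD 94.1) and PABPC1 (557, SD 525) to EEF1D (198, SD 86.8). The only neighbours in it that kept their order in all 6 libraries were PABPC1 and EEF1D. EEF1A1, EEF1B2 and EIF5A carry the uncertainty of their copies in these levels, and the called ORFs of EEF1G, EEF1D, EIF5A and TPT1 are variants with a start codon other than ATG, that of PABPC1 is of the truncated type, and only those of EEF1A1, EEF1B2 and EEF2 are of the CDS type.

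In polysomes after 1 h without amino acids all 8 genes had values below those of log phase, from -1.60 log2 for TPT1 to -0.13 for EEF2, with a median of -0.66 against -0.09 over all genes. Without the block none passed, as none of the 4868 genes did (0% of genes; 427 had an unadjusted p under 0.05, and DESeq2 called 92, TPT1 among them). With the replicate block TPT1 fell, beside 9.96% of genes called. With a letter term per fraction TPT1, EEF1A1, EEF1D and PABPC1 fell, beside 29.4%.

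TPT1 polysome footprints were at 403 and 313 CPM in log phase and at 132 and 103 without amino acids, so that the pairs of the same letter differed by 0.328 and 0.331 times. The log2 difference was -1.60 without the block (SE 0.52, adjusted p = 0.454), -1.61 with it (SE 0.42, adjusted p = 0.0153) and -1.60 with a term per fraction (SE 0.29, adjusted p = 5.55e-06). DESeq2 gave -1.53 (SE 0.46, adjusted p = 0.0184). The blocked call held without log phase polysomes B (-1.79, adjusted p = 0.0349) and was lost without log phase polysomes A, amino acid starvation polysomes A or amino acid starvation polysomes B (-1.36, -1.79 and -1.36, adjusted p of 0.303, 0.123 and 0.24). EEF1A1 had 1312 and 1471 CPM in log phase and 524 and 710 without amino acids, with no overlap (-1.17, SE 0.61, adjusted p = 0.576, and with a term per fraction -1.18, SE 0.34, adjusted p = 0.0045). Lower groups without overlap were seen for 17.3% of all genes. EEF1B2, EEF1G and EEF1D also had both starved libraries below both log phase libraries, at -0.68, -0.63 and -0.80 log2. EEF1D passed with a term per fraction (-0.77, SE 0.27, adjusted p = 0.0223). PABPC1 had overlapping libraries and passed there too (-0.80, SE 0.32, adjusted p = 0.046), with starved over log phase levels of 0.374 in A and 0.763 in B.

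EEF2 and EIF5A had the smallest differences in this comparison. EEF2 was at 0.696 times its log phase level in library A and at 1.03 times in library B, and its fitted value changed sign with the scaling (-0.13 with TMM, 0.08 with library size alone). EIF5A was at 0.724 and 0.876 times, at -0.38 log2 with TMM and 0.01 with library size alone. Library size alone moves the median of all genes in this comparison from -0.09 to 0.22.

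**Figure D3:**
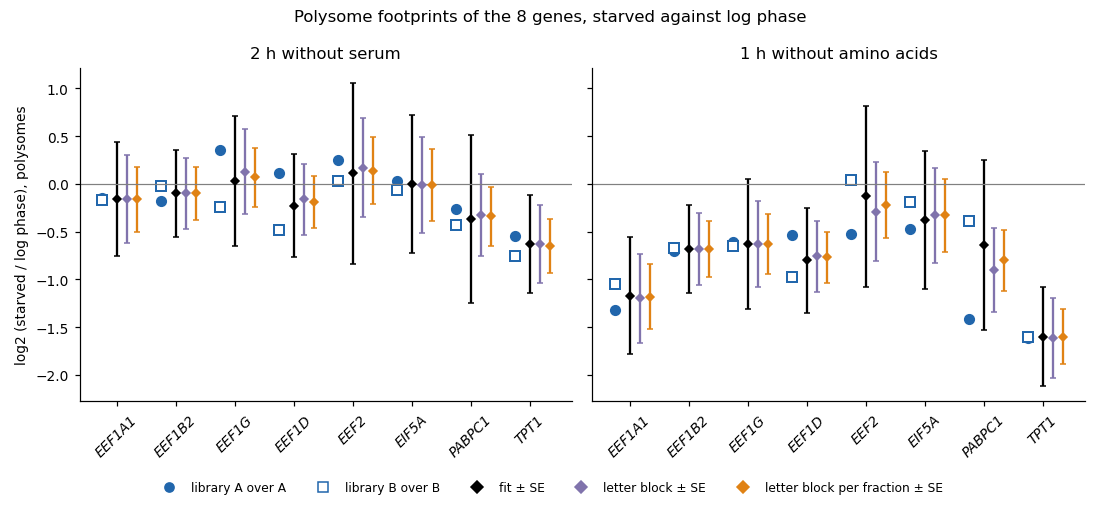
Log2 of starved over log phase polysome footprints for each gene, after 2 h without serum (left) and 1 h without amino acids (right), with points for pairs of the same letter and diamonds for the fits with their SE. All 8 fitted values without amino acids lie below 0 in each fit. In the fit without the block (black) they run from -1.60 for TPT1 to -0.13 for EEF2, and those without serum from -0.63 to 0.11.

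In monosomes without amino acids the fitted value was lowest for TPT1 and highest for EIF5A (0.80), and none of the 8 passed without the block (0% of genes) or with it (0.945%). With a term per fraction (6.45% of genes) TPT1 fell, from 490 and 1046 to 352 and 414 CPM (-0.95, SE 0.31, adjusted p = 0.0456), and the groups did not overlap, as in 22.4% of genes. Set against log phase, the ratio of monosomes to polysomes differed by more than 0 for 7 of the 8, from -0.06 for EEF1G to 1.18 for EIF5A, and passed for none (smallest adjusted p of 0.999 without the block, beside 0% of genes, 0.56 with it, beside 1.17%, and 0.227 with a term per fraction, beside 10%).

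The serum and amino acid comparisons share the log phase libraries. After 2 h without serum, none of the 8 passed in polysomes, in monosomes or in the ratio, with or without the block, where 0% of all genes were called without the block, 0% in polysomes and 0.0205% in monosomes and in the ratio with it, and 0.0616%, 0.76% and 0.267% with a term per fraction. Of all genes 5, 85 and 39 had an unadjusted p under 0.05 in these 3 comparisons without the block, and DESeq2 called none. Polysome values ran from -0.63 for TPT1 (SE 0.51), whose serum starved libraries at 276 and 185 CPM were both below log phase, to 0.11 for EEF2. EEF1A1 and EEF1B2 also had both serum starved libraries below both log phase libraries, as 3.49% of genes did, but by narrow margins. EEF1A1 was at 1183 and 1309 against 1312 and 1471 CPM, and EEF1B2 at 556 and 581 against 588 and 628. In monosomes they ran from -0.08 for TPT1 to 1.28 for PABPC1 (SE 0.90), which rests on library B (2936 against 1043 CPM) more than on library A (521 against 382). The ratio of PABPC1 differed by 1.65 log2 (SE 1.26) and that of EEF2 by 1.16 (SE 1.35). These standard errors leave room for several-fold changes, so the starvation comparisons limit what could be detected with 2 libraries a group.

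Related genes were taken from lists. Of 14 tested other cytosolic elongation and termination factors 2 were higher in monosomes and 4 lower, with a median of -0.51 log2, beside 17% higher and 21.8% lower over all genes. With the block these were 2 and 5, beside 23.8% and 30.1%. DPH3, which helps to make the diphthamide of EEF2, was higher (3.36, SE 0.46, adjusted p = 8.51e-05), as was EEF2KMT, the EEF2 lysine methyltransferase (1.50, adjusted p = 0.00927), and HBS1L, a ribosome rescue factor, was lower (-1.51, adjusted p = 0.0024). In amino acid starved polysomes none of the 14 passed without the block and GTPBP1 rose with it (1.39, SE 0.37, adjusted p = 0.0167). ABCE1, a ribosome recycling factor (1.16), EIF5A2 (-1.22) and EEF1E1 (-0.68) did not pass with the block. With a term per fraction 3 of the 14 rose, ABCE1 among them (1.15, adjusted p = 0.000422), and none fell. Of the mitochondrial elongation factors TUFM and TSFM were tested, and neither passed between the fractions without the block (-0.27 and -0.89). With it TSFM was lower in monosomes (-0.83, adjusted p = 0.0104) and rose in amino acid starved polysomes (1.32, adjusted p = 0.0353).

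Of 8 tested genes on the list of other poly(A)-binding proteins, their partners and related genes 1 was higher in monosomes and 1 lower (1 and 3 with the block), with a median of -0.38. The higher was PABPC4, another cytoplasmic poly(A)-binding protein (1.71, SE 0.31, adjusted p = 0.000728), and the lower was EIF4G2, a relative of the scaffold EIF4G1 (-1.35, adjusted p = 0.00265). PAIP1, a PABPC1 partner (-0.64, adjusted p = 0.0711), and LARP1, which binds the 5′TOP cap (-1.21, adjusted p = 0.212), were called lower with the block (-0.64 and -1.35) but not without. In amino acid starved polysomes G3BP1, a stress granule protein, rose with the block (1.58, SE 0.39, adjusted p = 0.0123) but did not pass without. With the block LARP1 (1.15), EIF4G1 (0.47) and PABPC4 (-0.43) did not pass. With a term per fraction 2 of the 8 rose, LARP1 among them (1.17, adjusted p = 0.0139), and none fell.

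Of 24 tested other 5′TOP mRNAs 8 were higher in monosomes and 3 lower (9 and 3 with the block), with a median of 0.40. Of 67 tested ribosomal protein genes 11 were higher and 4 lower, with a median of 0.17 (16.4% higher, near the 17% of all genes). With the block 22 were higher and 7 lower, beside 23.8% and 30.1% of all genes. With a term per fraction 25 were higher and 17 lower, beside 1261 and 1699 of the 4868 genes tested. Among the other 5′TOP mRNAs NAP1L1, a histone chaperone (1.50), and EIF3L, a subunit of the initiation factor eIF3 (1.25), were higher and SLC25A5, a mitochondrial ADP/ATP carrier, was lower (-1.68). The ribosomal protein genes that were higher included RPL41 (6.22), RPS28 (3.30), RPS21 (2.85) and RPS12 (2.96). In amino acid starved polysomes with the block 3 of the 24 fell and none rose (median -0.25), and 53 of the 67 ribosomal protein genes fell and none rose (median -2.25). PFDN5, a prefoldin subunit (-1.92), and SLC25A6, another ADP/ATP carrier (-1.25), were among the former, BTF3 did not pass (-1.38), and RPL12 (-3.90), RPS27 (-3.61), RPL21 (-2.51) and RPS18 (-2.82) were among the latter. The 8 genes had a median of -0.72 in that fit. Without the block no list had a gene that passed there. With a term per fraction 7 of the 24 fell, BTF3 among them (-1.37, adjusted p = 0.00203), and 2 rose. Over all genes 9.96% were called there with the block and 29.4% with a term per fraction. Some of these lists share genes, PABPC4 being on 2 of them.

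**Figure D4:**
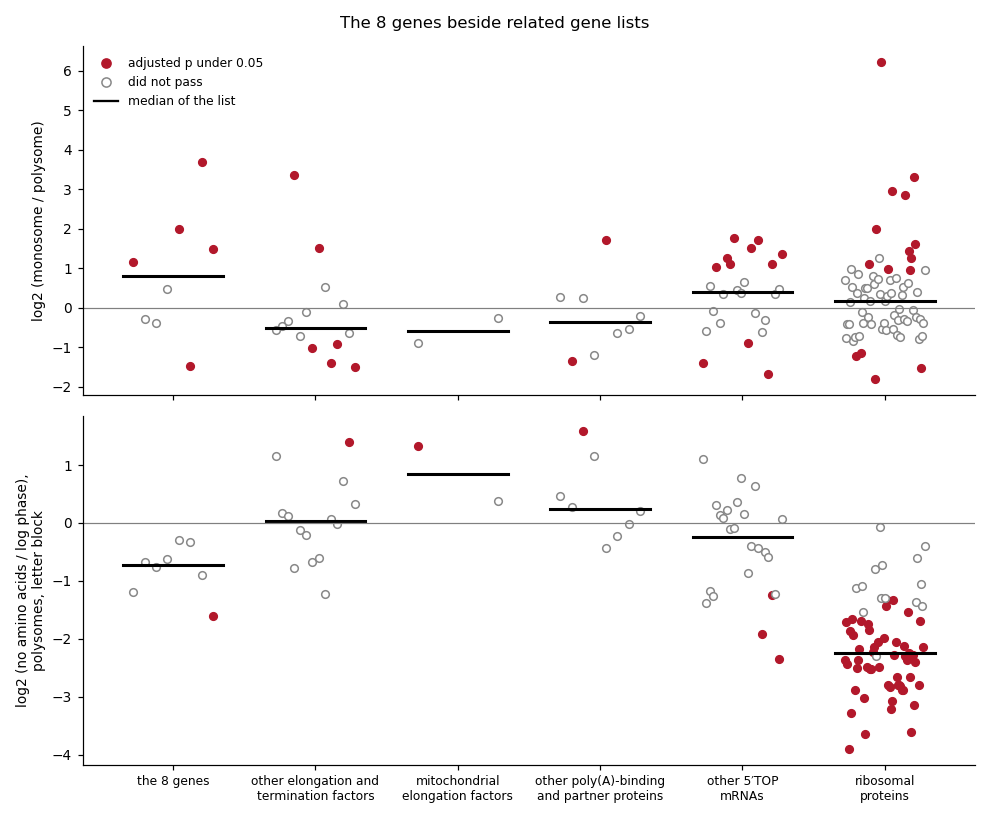
Fitted log2 values of every tested gene of the 6 lists, for monosome over polysome over 3 conditions without the block (top) and for amino acid starved over log phase polysomes with the block (bottom), red where the adjusted p was under 0.05, with the median as a line. In the top panel 5 of the 8 genes are red and the medians run from -0.58 for the mitochondrial factors to 0.81 for the 8 genes, and in the bottom panel the ribosomal protein genes lie lowest with a median of -2.25.

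The pyrimidine run at the annotated start was present in 353 tested genes other than the 8. Of these 18.4% were higher and 16.1% lower in monosomes, against 16.2% and 22.8% of the 3538 tested genes with a window and no run. With the block the shares were 27.5% and 21% with a run and 22.6% and 31.8% without. In amino acid starved polysomes with the block 15.9% of the genes with a run fell and 4.53% rose, against 3.36% and 5.65% of those without. Without the ribosomal protein genes the shares with a run were 7.01% and 5.1% of 314.

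The genes with the most similar profile over the 12 libraries, by Pearson r of log2 CPM among 3423 genes, were found for each of the 8. For PABPC1 these were YBX3, a cold-shock domain protein (0.975), PABPC4 (0.961) and CREBZF (0.951), and for EEF2 they were EIF4B, the cofactor of the helicase eIF4A (0.955), VIM (0.950) and YBX3 (0.940). TPT1 was nearest to RWDD1 (0.948), RPS21 (0.941) and RPS28 (0.932), and EEF1A1 to genes that include CLPTM1L (0.940) and MKNK2 (0.899). EIF5A was nearest to FAM162A (0.990), H3-3B (0.986) and SNRPD1 (0.986). EEF1B2 was nearest to a gene left unnamed, ENSG00000114391 (0.894), RPL7 (0.867) and RPS13 (0.839), EEF1G to genes that include MYBL2 (0.948) and RPS4X (0.938), and EEF1D to NCAPH2 (0.930), NCLN (0.922) and TTYH3 (0.900). Among the 8, the highest r was 0.92 between EEF2 and PABPC1 and the lowest -0.89 between EIF5A and PABPC1. EEF1A1 was at 0.79 with EEF1G and 0.10 with EEF1B2, though both are partners of it in the cell. These values describe 12 libraries that share the fraction and the letter.

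Footprints were also called outside the coding ORFs of these genes, in ORFs that the deposited table lists under the same gene and that lie on the same strand. Some lie beyond the RefSeq start of the gene. Downstream of the EEF1A1 coding ORF there were 101 such footprints per 100 coding ones in monosomes and 3.96 in polysomes. By library the monosome values were 15.4 and 90.6 in log phase, 36.1 and 161 without serum and 29.5 and 119 without amino acids, and the polysome values were 0.692 and 4.65, 1.45 and 5.19, and 2.83 and 12.9. All 6 monosome libraries were above all 6 polysome libraries, as in 8.79% of the 1138 genes with at least 50 downstream footprints, and library B was the higher of each group. The ratio between the fractions was 25.5-fold, against a median of 2.98-fold over those genes, of which 1.58% had a ratio at or above it. The ORF with the most of these footprints lay at chr6:73517612-73517776 (hg38), with 1241 footprints in monosomes and 284 in polysomes, and its caller p was 0.706.

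TPT1 showed the same order, with 35.6 downstream footprints per 100 coding ones in monosomes and 1.53 in polysomes. Its monosome values were 4.19 and 24.4 in log phase, 18.9 and 76.1 without serum and 9.47 and 49.6 without amino acids, and its polysome values lay between 0.45 and 4.1. The groups did not overlap, and 2.02% of genes had a ratio at or above its 23.3-fold. Without serum starvation monosomes B the TPT1 ratio was 14.4-fold (22 against 1.53), and leaving out each library in turn, tried after seeing the data, gave 17.8-fold to 34.6-fold for EEF1A1. PABPC1 had 17.5 against 4.35 (4.01-fold), EEF1D 8.05 against 0.868 (9.28-fold), EEF2 3.61 against 0.638 (5.66-fold) and EIF5A 2.71 against 1.89 (1.43-fold), all with overlapping libraries. Upstream of the coding ORF, EEF1B2 stood apart with 71.3 footprints per 100 coding ones in monosomes and 10 in polysomes, 24.8 to 191 against 4.98 to 14.9 by library. Monosome libraries lay above polysome libraries in this way in 5.81% of 1808 genes. The EEF1B2 upstream ORFs with the most footprints lay between chr2:206159654 and chr2:206159871 (hg38). This is before the annotated start with the run of 16 pyrimidines, so they are not in the leader of an mRNA that begins there. PABPC1, whose leader carries the A-rich stretch, had 18.2 upstream footprints per 100 in monosomes and 19.4 in polysomes.

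**Figure D5:**
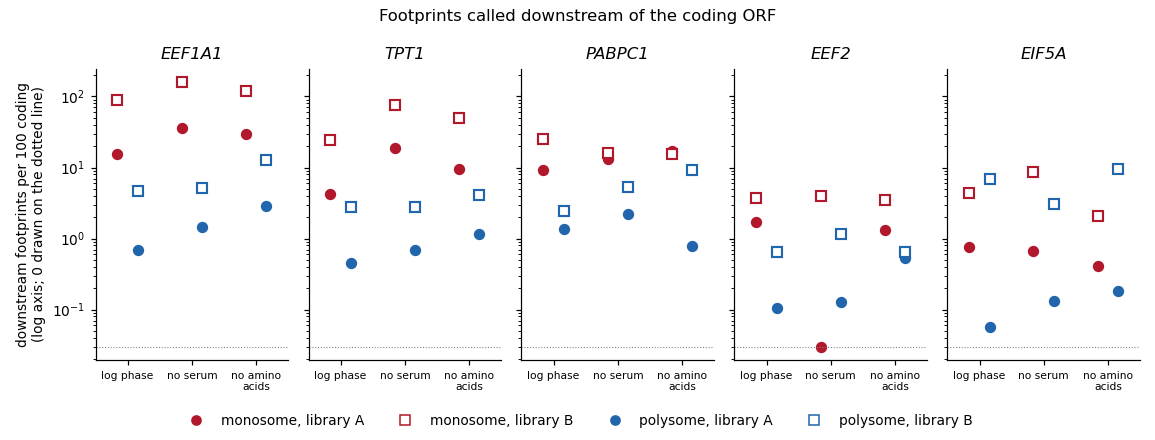
Footprints called downstream of the coding ORF per 100 coding footprints (log axis), by library, for 5 of the genes, in monosomes (red) and polysomes (blue), library A filled and B open, with 0 drawn on the dotted line. The EEF1A1 monosome libraries lie at 15.4 to 161 and its polysome libraries at 0.692 to 12.9, and those of TPT1 at 4.19 to 76.1 and 0.45 to 4.1.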

How the data were processed

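The authors deposited a table of ORFs called by PRICE, in which the expected count of footprints of each ORF in each library was shared out among candidate ORFs by the caller. The caller's p-value and its start and range score per ORF were also deposited by the authors; the scores were not used. Per the submitters' processing notes, Bowtie 1.0 and hg38 were used; how reads with several matches were placed is not given in the sources used here. Of 149028 ORFs 124829 were kept so that each codon counted once, 7031 of them coding. They were named by hg38 position inside protein-coding RefSeq genes, and the coding ORFs of joined gene identifiers were named ORF by ORF. Counts were summed per gene, rounded, filtered (minimum count 10, total 15) and tested with edgeR 4.0.16 in R 4.3.3 (quasi-likelihood, TMM, 6 groups in 1 fit), with p-values adjusted by Benjamini-Hochberg over 4868 genes. The script was tested on simulated data. The column letters were checked for pairing: deviations of B from A correlated across conditions by 0.768 to 0.866 in polysomes, 0.217 to 0.313 in monosomes and 0.161 to 0.423 between fractions. The letters were taken to pair the libraries, which rests mainly on the polysomes. No label ties them to a shared day or culture. Alternatives were both forms of the replicate block, other scalings and filters, coding ORFs of the CDS type alone, a stricter caller p-value, DESeq2 1.42.0 and leaving out each library. The 8 genes and the lists were chosen with earlier results of these data known. The rule for named genes took all 8, the 3 genes most correlated with each (mean of at least 50 footprints per library) and, per list, up to 4 genes with the smallest p between fractions and up to 4 in amino acid starved polysomes. Some genes that this rule took are not reported here.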

Additional observations from a re-analysis of the deposited data

How the results depend on the processing

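Of 8 genes, 5 differed between fractions over the 3 conditions, against 3 with CDS-type ORFs alone (EEF1G, EIF5A and PABPC1 not tested), 2 with the stricter caller p-value (EEF1G, EEF2 and PABPC1 not tested) and 3 to 5 leaving out each library. In log phase the 0 became 4 with the replicate block, 7 with a block per fraction, 3 with DESeq2 and 1 with only the groups compared in the fit. In serum starvation the 1 became 4 and 5 with the blocks, 2 with RLE, library size or a 50-count filter, 3 with DESeq2 and 0 to 1 leaving out libraries. In amino acid starvation the 1 became 4 with either block, 2 with RLE, the 50-count filter or only the groups compared, 3 with DESeq2, 0 with library size and 0 leaving out any of its libraries. In amino acid starved polysomes the 0 became 1 with the block or DESeq2 and 4 with a block per fraction, and in monosomes 1 with the latter. Leaving out libraries under the block, an alternative chosen after seeing the data, gave 5 to 6 for the fractions and 0 to 1 for amino acid starved polysomes. For the 8 genes, the single replicate block changed no other call than those given; calls of list genes also moved with it. EIF5A lost its fraction call with the stricter caller p-value (-1.08, adjusted p = 0.0602). Signs turned for EEF1G between fractions (-0.09 to 0.65 leaving out libraries) and, in amino acid starved polysomes, for EEF2 (0.09 with CDS-type ORFs, 0.08 with library size, -1.07 to 0.47 leaving out libraries), EIF5A (0.01 with library size, -0.85 to 0.34) and PABPC1 (-2.03 to 0.08). Between fractions the median of all genes was -0.18 log2 with TMM and -0.04 with RLE, and the share of calls that were higher 43.9% and 52.4%. The causes were not tested. With 2 libraries a group and shallow monosome libraries, the starvation comparisons could miss large effects as well as small ones. In the edgeR fit without the block even RPL12 did not pass in amino acid starved polysomes, at -4.07 log2 (SE 0.75, adjusted p = 0.175).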

Other observations

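Some called ORFs inside the introns of these genes lie over small nucleolar RNA genes, which guide the modification of ribosomal RNA. The 2 ORFs over SNORD37, in EEF2 (chr19:3982507-3982572, hg38), held 813 footprints in monosomes and 56.8 in polysomes, although the polysome libraries were deeper, and 633.2 of the former came from serum starvation monosomes B. The 2 ORFs over SNORA41, in EEF1B2, held 136 and 75.9. No called ORF lay over SNORD51 in EEF1B2 or over SNORA31 and SNORA31B in TPT1.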
